A study of Oryza sativa with 2 samples.

Results

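The genes described here are OrsaiCp11, OrsaiCp12 and OrsaiCp13, which are 3 of 65 OrsaiCp identifiers and of 57343 gene identifiers in all. They were chosen by identifier, as neighbours in the plastid series of the annotation, with earlier results of these data known. RNA was taken from 2-week-old Minghui 63 rice, an indica line and parent of the hybrid Shanyou 63, collected at 8:00. Seeds of both libraries had been soaked in water at 37 °C for 72 h, and plants then had days of 14 h at 32 °C and nights of 10 h at 28 °C. The label names seedling as tissue and the protocol names leaves. Ribosomal RNA was removed and 2 libraries were sequenced, with 18096722 gene counts in library 1 and 18799901 in library 2. Both belong to a single group, so no treatment, genotype or time could be compared, and the labels do not say that they came from separate plants. Their spread may therefore be technical.

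The files give no gene names, so the identifiers were paired with the plastid genes of a RefSeq table of japonica rice (assembly ASM3414082v1) by number order and length together. Of 64 OrsaiCp identifiers with a length, 51 had the same partner in every longest common order of lengths. OrsaiCp11 (711 bp) paired with rps2, OrsaiCp12 (744 bp) with atpI and OrsaiCp13 (246 bp) with atpH. The lengths 711 and 744 each occur once among the 108 plastid protein-coding genes of that table and once among the OrsaiCp identifiers. The length 246 occurs 2 times in each, as atpH and psaC, and the order put OrsaiCp13 at atpH and OrsaiCp56 at psaC. The identifiers before the cluster paired with rpoB (OrsaiCp08), rpoC1 (OrsaiCp09) and rpoC2 (OrsaiCp10). The one after it paired with atpA (OrsaiCp14). In the reference table atpF lies between atpH and atpA with a length of 1371 bp, introns included, and no OrsaiCp identifier paired with it. The symbols below rest on this pairing, and the sequences were not examined.

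The plastid genome of plants keeps a small set of genes, many of which lie in clusters that are transcribed together and then cut and trimmed into smaller RNAs. In land plants rps2, atpI, atpH, atpF and atpA follow each other on one strand, after the genes for the large subunits of the plastid-encoded RNA polymerase. The product of rps2 is protein S2 of the small ribosomal subunit. The products of atpI and atpH are subunit a and the ring-forming subunit c of the membrane part of ATP synthase, which makes ATP from the proton gradient of photosynthesis. In maize, the protein PPR10 binds RNA between atpI and atpH and defines RNA ends there. Presence of chloroplasts was checked with psbA, psaA, psaB and rbcL, which are active in green leaf. The first 3 had partners, and psbA (OrsaiCp01) was the highest OrsaiCp identifier at an FPKM of 388577 ± 6422 (SD, n = 2). The partners of psaB and psaA were at 2175 ± 14.9 and 206 ± 3.71 FPKM (SD, n = 2), and rbcL had no partner.

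The 3 genes differed widely in level, taken from uniquely aligned reads, although they are neighbours. Whether reads left out for aligning to several places shape these differences was not tested. The partner of rps2 was counted 6024 times in library 1 and 5720 times in library 2. The partner of atpI had 78849 and 78122 counts. The partner of atpH had 78993 and 76998 counts. The libraries were close to each other for each gene, rps2 was far below the others in both, and atpI and atpH had almost the same raw count. As FPKM, which is the count per kb of gene length scaled to the gene total of the library, rps2 stood at 448 ± 28.5, atpI at 5721 ± 192 and atpH at 17197 ± 774 (SD, n = 2). All 3 identifiers had the minimum of 10 counts over both libraries. Together they held 0.906% of all gene counts in library 1, with an exact 95% interval (Clopper-Pearson) from 0.901% to 0.910%. In library 2 they held 0.856% (0.851% to 0.860%). Of the OrsaiCp counts other than those of OrsaiCp01 they held 10.1% and 9.86%. Within the cluster rps2 made up 3.68% and 3.56% of the counts, atpI 48.1% and 48.6%, and atpH 48.2% and 47.9%. Reads carried no molecular identifiers, so such intervals describe the error of counting alone.

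Counts per kb rose at each step from rps2 to atpH in both libraries. In library 1 they were 8473 for rps2, 105980 for atpI and 321110 for atpH. In library 2 they were 8045, 105003 and 313000. The step from rps2 to atpI was 12.5-fold in library 1 (95% interval 12.2 to 12.8) and 13.1-fold in library 2 (12.7 to 13.4), with a mean of 12.8 ± 0.384 (SD, n = 2). This step hardly depends on length, since the genes differ by only 33 bp, and it was 13.1-fold and 13.7-fold in raw counts.

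The step from atpI to atpH was 3.03-fold per kb in library 1 (95% interval 3.0001 to 3.06) and 2.98-fold in library 2 (2.95 to 3.01), with a mean of 3.01 ± 0.0347 (SD, n = 2). It rests on the division by length. In raw counts the ratio of atpH to atpI was 1.002 in library 1 and 0.986 in library 2, and atpI is 3.02 times as long. A fragment that overlaps a gene in part may be counted for it, which adds more per kb to a short gene. With the read length of 150 bases added to each gene length the step was 2.24-fold, and with 300 bases added it was 1.90-fold. Over both steps the level rose 38.4-fold per kb (± 0.711, SD, n = 2), against 28.9-fold and 24.6-fold with the added lengths and 13.3-fold in raw counts. With 2 libraries no two-sided exact test over samples can give a p below 0.5, so the steps carry no p. The steps from rps2 to atpI and from rps2 to atpH were above 1 in both libraries at every setting of length and in raw counts, whereas the step from atpI to atpH was near 1 in raw counts and above 1 once counts were divided by any of the lengths.

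**Figure D1:**
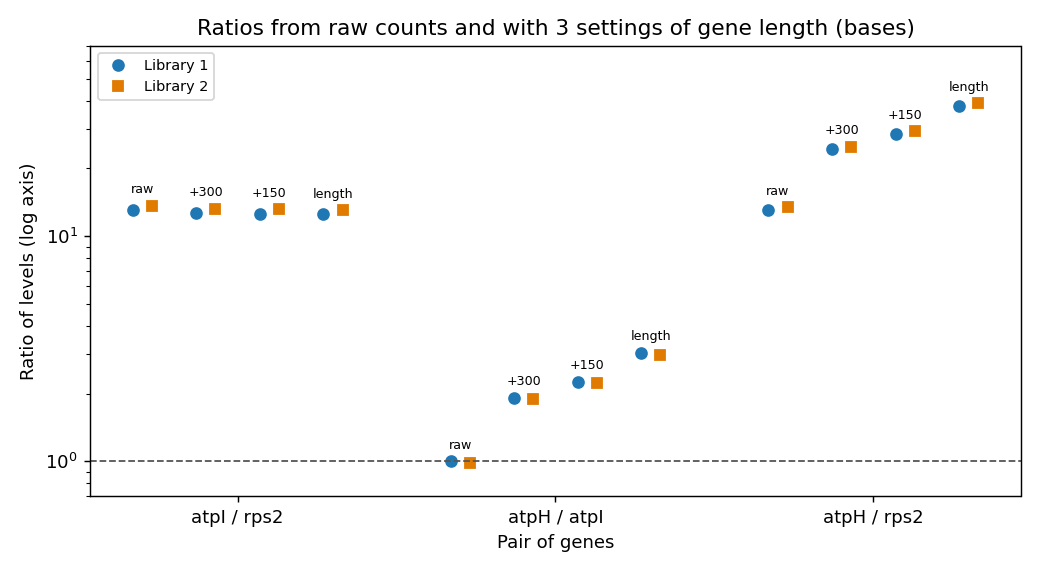
Ratio of levels (vertical, log axis) for 3 pairs of cluster genes in library 1 (circles) and library 2 (squares), from raw counts, from counts per base of gene length, and with 150 or 300 bases added to each length. The atpI to rps2 ratio stays near 13, while the atpH to atpI ratio goes from about 1 in raw counts (dashed line) to 3.01 per kb.

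The genes before the cluster, which encode the large RNA polymerase subunits, were lower. The partner of rpoC2 was counted 4322 and 4240 times, which is 952 and 934 per kb. The level of rps2 was 8.76 ± 0.202 times that of rpoC2 per kb (SD, n = 2), although its raw count was only 1.39 and 1.35 times as high. With 150 and 300 bases added to the lengths, rps2 was at 7.47 and 6.57 times rpoC2. The partner of rpoC1 had 13 and 6 counts, and the partner of rpoB had 667 and 635. The low rpoC1 count sits between neighbours on both sides with far more counts, and so the series of levels falls from rpoB to rpoC1 before it climbs through rpoC2 to atpH. After the cluster the level fell again. The partner of atpA, the catalytic-part subunit alpha, was counted 79393 times in library 1 and 82052 times in library 2. These raw counts were 1.01 and 1.07 times those of atpH. Per kb, atpA was at 0.167 ± 0.00691 times the level of atpH and at 0.502 ± 0.0150 times that of atpI (SD, n = 2). With 150 and 300 bases added to the lengths, atpA was at 0.245 and 0.310 times atpH. It was then at 0.549 and 0.589 times atpI. The next identifier, the partner of rps14, had 3049 and 3145 counts. Thus atpI, atpH and atpA had raw counts between 76998 and 82052 in both libraries, and per kb they stood in the reverse order of their lengths.

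**Figure D2:**
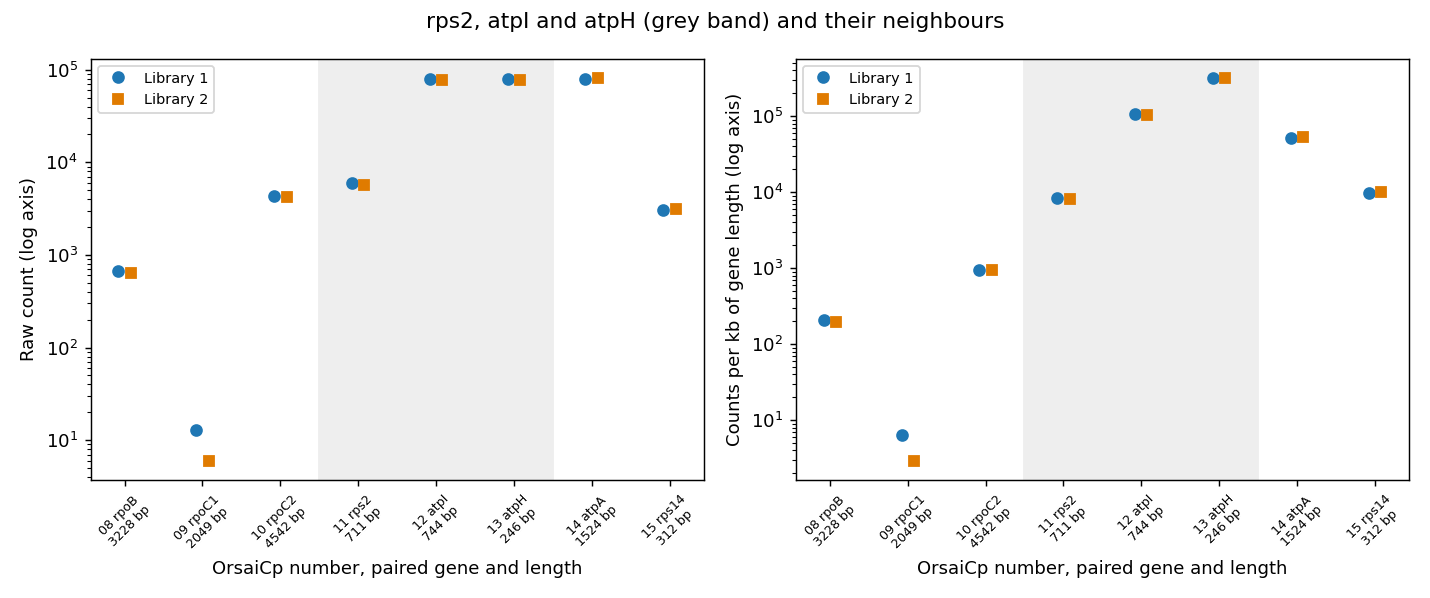
Raw counts (left) and counts per kb (right), both on log axes, for the identifiers paired with rpoB to rps14 in library 1 (circles) and library 2 (squares), with rps2, atpI and atpH in the grey band. Raw counts are nearly level from atpI to atpA, whereas counts per kb peak at atpH, at 321110 and 313000.

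Rises over 3 successive identifiers were not rare along the OrsaiCp numbering. Of 58 runs of 3 successive numbers, 8 (13.8%) rose at both steps in both libraries, and 10 fell at both. Of those 8, 7 had a rise from first to last at least as large as that from rps2 to atpH in the library where it was smallest, the cluster itself among them. The runs overlap, and 3 of the 8 belong to one climb from rpoC1 (OrsaiCp09) to atpH (OrsaiCp13). That climb of 5 identifiers was the longest in the numbering, and it kept that place with 150 or 300 bases added to the lengths and in either library alone. It was singled out after the values were seen, and it starts from 13 and 6 counts.

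**Figure D3:**
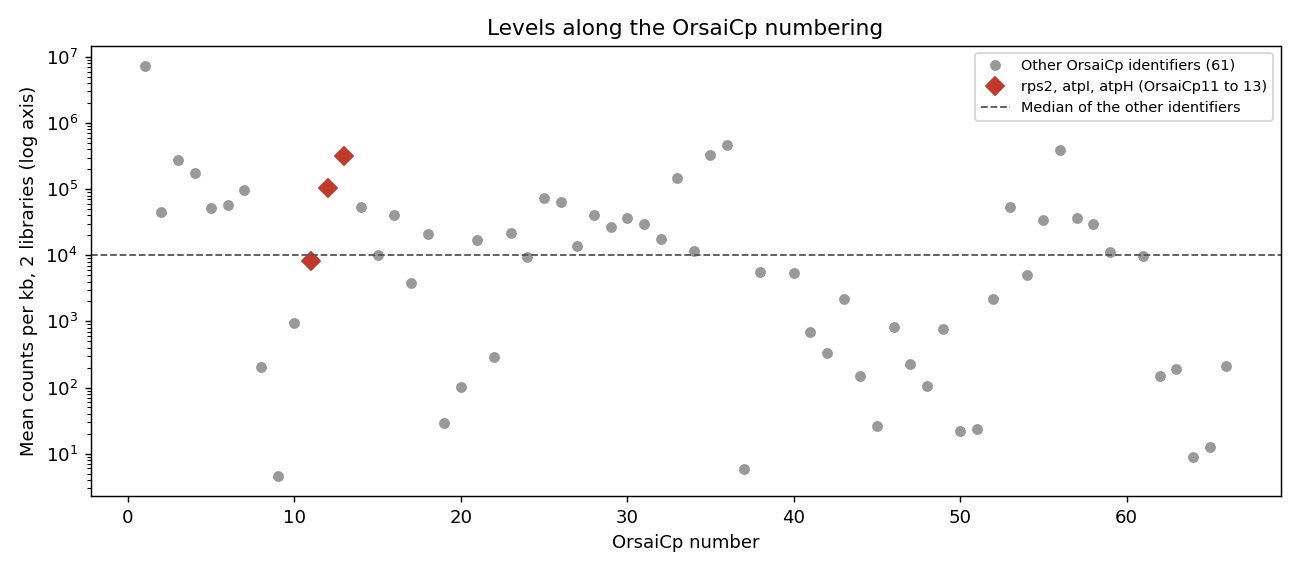
Mean counts per kb of both libraries (vertical, log axis) for 64 OrsaiCp identifiers in number order, with rps2, atpI and atpH as diamonds and the median of the other 61 as a dashed line. The diamonds climb from 8259, just under the median of 9926, to 317055.

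Set against the other OrsaiCp identifiers, rps2 was of middle level and atpI and atpH were near the top. The median FPKM of the other 61 was 547 in library 1 and 536 in library 2. The level of rps2 was 0.832 times the median of the others per kb, with 35 identifiers above it and 28 below. The level of atpI was 10.6 times that median, with 8 identifiers above it. The level of atpH was 31.9 times that median, with 4 above it. The other 61 include 2 identifiers each for rps7 and rps15, all below rps2. Reads that aligned to both copies of a gene entered no count, and whether this lowered the median was not tested. Among all 57342 identifiers with an FPKM, atpH ranked 5, atpI 11 and rps2 112. By raw count, 8 OrsaiCp identifiers lay above atpH and 7 above atpI. Among the 19 OrsaiCp identifiers of 300 bp or less, 2 lay above atpH, and the median FPKM of the other 18 was 1088. Among the 6 of 600 to 900 bp, atpI was the highest and 3 lay above rps2. Over the 64 identifiers counts per kb had a Spearman rho of -0.039 with length, across genes that share libraries.

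The identifiers next above atpH in level were OrsaiCp35, which had no partner, and OrsaiCp56, the partner of the photosystem I gene psaC. OrsaiCp35 was 0.062 above atpH in log2 mean counts per kb. It was higher in each library, at 328952 and 333017 counts per kb against 321110 and 313000 for atpH, and the libraries' values did not overlap. The partner of psaC has the same length as atpH and so needs no length correction, and it was 1.21 ± 0.0295 times as high (SD, n = 2), with 94228 counts in library 1 and 95057 in library 2. Below atpH came the partners of psbK and psbI, small photosystem II subunits, at log2 differences of -0.19 and -0.86. Around atpI stood the partner of psbB (0.48 above) and the unpaired OrsaiCp07 (-0.14), then the partners of psbI (0.73) and of ycf4, a photosystem I assembly factor (-0.53). Around rps2 stood OrsaiCp24, whose partner has no gene symbol (0.18), and the partner of ndhH (0.26). Below it was the partner of infA, a translation initiation factor (-0.62). In counts per kb none of these overlapped its member over the libraries. This likeness is in level alone, over 2 libraries.

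By complex, atpH and atpI were the highest of the 4 identifiers paired with plastid ATP synthase genes, out of 6 genes in that list. The partner of atpA followed with an FPKM of 2871 ± 10.5, and the partner of atpE, for subunit epsilon, had 15.9 ± 3.46 (SD, n = 2), from 101 and 143 counts. The genes atpB and atpF had no partner. In the small ribosomal subunit list, 12 identifiers were paired with 10 of 12 genes, and rps2 was below rps18, rps4 and rps14 and above the other 8. The median FPKM of the 11 others was 38.2. Among the 8 below rps2, rps7 and rps15 had 2 identifiers each, at 41.5 and 10.2 and at 1.18 and 8.03 FPKM. Reads that aligned to both copies of a gene entered no count. Whether this lowered the median was not tested. The 4 RNA polymerase partners had a median FPKM of 5.88 in library 1 and 5.39 in library 2, with 51.1 ± 2.07 (SD, n = 2) for rpoC2 as the highest. The median FPKM of the 8 photosystem II partners was 5824 and 5272, so atpI was near that median and atpH above it. Reads that aligned to several places entered the count of no gene, and how many of them came from these genes is not recorded in the files.

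**Figure D4:**
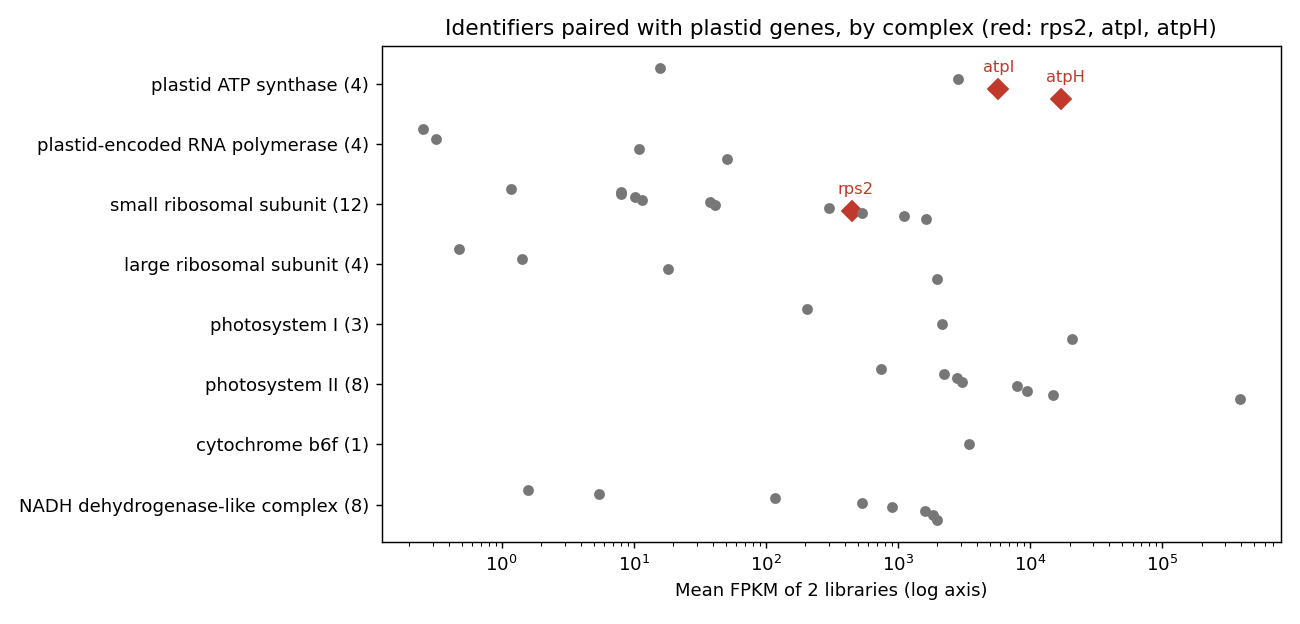
Mean FPKM of both libraries (horizontal, log axis) for identifiers paired with genes of 8 plastid complexes, 1 point per identifier, the number of identifiers in brackets, and rps2, atpI and atpH as red diamonds. The ATP synthase row spans 15.9 to 17197, with atpH at its top, and rps2 stands in the upper part of the small ribosomal row.

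The libraries were compared with each other by a two-sided exact binomial test on counts over all identifiers, scaled by edgeR's TMM factors. It compares 2 libraries and not conditions, with the sampling noise of counts as its only null. Its p does not measure the usual spread between libraries. In bulk RNA, fewer chloroplast-bearing cells and less RNA per cell cannot be told apart. Of 62 OrsaiCp identifiers tested, 8 (12.9%) were higher in library 1 and 7 (11.3%) higher in library 2, against 58 (0.293%) and 76 (0.384%) of all 19770 tested. In either direction this was 24.2% of the OrsaiCp identifiers and 0.678% of all. High counts let the test call small differences, and whether this accounts for the larger OrsaiCp share was not tested. All 3 cluster genes were higher in library 1, by small amounts. The ratio was 1.07 for rps2 (95% interval 1.04 to 1.11, exact binomial adjusted p = 0.0200). It was 1.03 for atpI (1.02 to 1.04, exact binomial adjusted p = 3.7e-06). It was 1.05 for atpH (1.04 to 1.06, exact binomial adjusted p = 2.7e-16). No other ATP synthase partner and no other small ribosomal partner was called in either direction, out of 4 and 12 tested, cluster genes included. None of the 4 RNA polymerase partners was called. Their counts were lower than those of the cluster genes, from 6 and 6 for rpoA to 4322 and 4240 for rpoC2. Low counts leave small differences harder to call. Whether the cluster differs from those genes was not tested.

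The calls for rps2 and atpI depended on how the libraries were scaled. With DESeq2 size factors, which were equal for both libraries, the exact binomial adjusted p was 0.22 for rps2, within 0.00045 to 0.22 over the alternatives, and 0.61 for atpI, within 7.2e-18 to 0.61. The OrsaiCp calls then divided into 3 higher in library 1 and 12 higher in library 2. Those of all identifiers divided into 38 and 151. The share higher in library 1 was 20% of the OrsaiCp calls and 20.1% of all calls. Scaled to gene totals, OrsaiCp calls divided into 16 and 6, and all calls into 91 and 34. That share was then 72.7% and 72.8%, so the OrsaiCp calls shifted as all calls did. The call for atpH stood under each scaling tried, with an exact binomial adjusted p of at most 0.00012.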

How the data were processed

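Total RNA depleted of ribosomal RNA (2 µg, strand-marking kit, paired 150 bp reads) was measured in 2 libraries, per the labels. Trimmomatic, HISAT2 and HTSeq were used, per the submitters' processing notes. Their versions, the genome build, annotation and strand setting are not given in the sources used here, so sense and antisense reads cannot be told apart. Raw counts per gene were used as deposited. FPKM was computed by the authors from count, length and gene total, and was recomputed to within 5e-06. The deposited upper-quartile FPKM and other scaled values were not used. Summary lines naming no gene (43.0% and 39.1% of all entries) stayed out of totals and tests.

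Members and lists were chosen with earlier results of these data known. Named genes are the members, their order neighbours, the RNA polymerase and ATP synthase partners, OrsaiCp01, and the 2 identifiers next above and below each member in counts per kb. One identifier that this rule names is not reported here. Ratios within a library carry exact 95% Clopper-Pearson intervals. Library differences used an exact binomial test (10 or more counts in sum, pseudocount 0.5, Benjamini-Hochberg at 0.05). It was tried on simulated counts with sampling noise alone, which cannot show how it behaves under further spread between libraries. Alternatives covered length, scaling, filters, pseudocount and leaving out a library. Tools were edgeR 4.0.16 and DESeq2 1.42.0 (size factors only) in R 4.3.3, and scipy 1.17.1 and pandas 2.3.3 in Python 3.11.15.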

Additional observations from a re-analysis of the deposited data

Results flagged for a closer look

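Several counts in the files lie outside the gene comparisons and are given for their size. Multiply aligned entries were 27.7% of all entries in library 1 and 25.8% in library 2, or 53.7 and 49.5 times the counts of the cluster. Entries that aligned outside counted features were 8.08% and 7.95%, or 15.6 and 15.3 times the cluster. OrsaiCp60 has no length, so it entered no level per kb, and had 28780 and 28030 counts. How many of these entries came from the rps2 to atpH region is not recorded.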

How the results depend on the processing

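No paired analysis was possible because both libraries belong to 1 group. Raw-count ratios, and all ratios to identifiers outside the cluster, were added after seeing the data. The atpH to atpI ratio of 3.01 became 2.24 and 1.90 with 150 and 300 bases added to the lengths and 0.994 in raw counts. That raw mean is near 1, with 1.002 in library 1 and 0.986 in library 2, so the direction changed in library 2 alone. The atpH to rps2 ratio of 38.4 became 28.9, 24.6 and 13.3, and the atpI to rps2 ratio of 12.8 became 13.4 in raw counts. In raw counts atpA was at 1.04 times atpH and 1.03 times atpI, above them and not below. By construction these changes come from the length divisor alone. Without a library the 3 ratios stayed between 2.98 and 3.03, 37.9 and 38.9, and 12.5 and 13.1. In raw counts 8 OrsaiCp identifiers lay above atpH, against 4 per kb. Scaled to gene counts without OrsaiCp01, FPKM was 763 for rps2, 9739 for atpI and 29273 for atpH, and scaled to MH counts alone it was 949, 12122 and 36439. A smaller total raises all alike.

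The library difference of rps2 (log2 0.10) was 0.075 with DESeq2 size factors (exact binomial adjusted p = 0.22) and 0.085 scaled to OrsaiCp counts without OrsaiCp01 (0.12), and its adjusted p ran from 0.00045 to 0.22. That of atpI (0.042) was 0.013 (0.61) and 0.024 (0.10), within 7.2e-18 to 0.61. That of atpH ran from 6.2e-33 to 0.00012. The count filter and pseudocount changed no call of the 3 genes. Counts of identifiers called were 15 to 22 for OrsaiCp and 113 to 189 for all. The rpoC1 values rest on 13 and 6 counts, and those of the cluster genes on 5720 or more in each library. Why the rpoC1 count was low was not tested.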
